A study of Mus musculus with 3 samples.

Results

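The genes described here encode fibronectin (*Fn1*) and 9 matricellular proteins (*Postn*, *Tgfbi*, *Tnc*, *Thbs1*, *Thbs2*, *Thbs3*, *Sparc*, *Sparcl1* and *Spp1*), 10 genes of the 15554 rows in the table, chosen by symbol. Each symbol was found in a single row. NIH3T3, an established line of mouse embryonic fibroblasts, was serum-starved in IMDM and then held for 24 h without stimulation (CTRL), with GDF15 at 100 ng/mL (GDF15) or with TGF-β at 4 ng/mL (TGF-β). All 3 groups therefore shared serum withdrawal, and the cultures were of 1 cell line. RNA was pooled within each treatment before a single library was made, so no value has a replicate error and no p-value is given between treatments. Values are FPKM, in which fragments are scaled to transcript length and to library size, so that levels of different genes compare per length. In bulk RNA of this kind, fewer cells with a transcript and less of it per cell cannot be told apart.

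Matricellular proteins are secreted into the extracellular matrix (ECM) but mostly regulate how cells attach, move and receive signals, rather than forming the load-bearing scaffold. They are scarce in most resting adult tissues and abundant in wounds, fibrosis and tumor stroma. Fibronectin is the adhesive glycoprotein that fibroblasts assemble into fibrils through integrins and on which collagen and several matricellular proteins are deposited. TGF-β is a well known inducer of fibronectin, periostin and tenascin-C in fibroblasts, and the comparison with CTRL asks whether GDF15, a distant member of the TGF-β superfamily, moved the same genes.

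Promoter sequences from RefSeq were used for 7 of the 10 genes, with 10 start sites in all, and those of *Thbs1*, *Sparcl1* and *Fn1* were not analysed here. A set of 6 windows, chosen to cover genes that were higher, lower and level under stimulation, is printed here as the 250 bases before the start site (GRCm38.p6), read 5′ to 3′ on the strand of the gene. Capitals mark CAGAC, core letters bound by SMAD proteins, and TATAAA, the letters of a common form of TATA box, each searched on both strands, so that a match on the other strand appears as its reverse complement. Of all 32851 promoter windows of this length, 42.2% hold CAGAC and 12.4% hold TATAAA on either strand.
*Postn*, chr3:54360857-54361106, plus strand: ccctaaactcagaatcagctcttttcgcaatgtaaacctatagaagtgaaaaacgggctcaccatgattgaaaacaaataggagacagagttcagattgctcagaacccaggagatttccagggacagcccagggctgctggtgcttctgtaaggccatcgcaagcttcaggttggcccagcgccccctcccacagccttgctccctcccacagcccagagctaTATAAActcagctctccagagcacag
*Tgfbi*, chr13:56609336-56609585, plus strand: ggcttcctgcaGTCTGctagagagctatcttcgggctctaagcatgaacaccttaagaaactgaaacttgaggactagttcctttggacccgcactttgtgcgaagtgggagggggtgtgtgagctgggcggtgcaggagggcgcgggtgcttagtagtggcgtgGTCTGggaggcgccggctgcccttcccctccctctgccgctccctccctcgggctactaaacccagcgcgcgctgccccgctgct
*Tnc*, chr4:64046937-64047186, minus strand: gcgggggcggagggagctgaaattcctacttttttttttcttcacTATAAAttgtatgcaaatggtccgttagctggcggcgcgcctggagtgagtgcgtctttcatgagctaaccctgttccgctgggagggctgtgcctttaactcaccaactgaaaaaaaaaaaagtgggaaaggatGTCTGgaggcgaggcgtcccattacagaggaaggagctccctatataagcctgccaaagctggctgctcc
*Thbs2*, chr17:14694263-14694512, minus strand: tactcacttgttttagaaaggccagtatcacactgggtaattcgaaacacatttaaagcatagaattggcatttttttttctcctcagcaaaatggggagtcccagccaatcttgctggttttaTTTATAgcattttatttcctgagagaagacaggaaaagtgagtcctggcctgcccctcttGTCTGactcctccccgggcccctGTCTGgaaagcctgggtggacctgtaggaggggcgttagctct
*Sparc*, chr11:55420081-55420330, minus strand: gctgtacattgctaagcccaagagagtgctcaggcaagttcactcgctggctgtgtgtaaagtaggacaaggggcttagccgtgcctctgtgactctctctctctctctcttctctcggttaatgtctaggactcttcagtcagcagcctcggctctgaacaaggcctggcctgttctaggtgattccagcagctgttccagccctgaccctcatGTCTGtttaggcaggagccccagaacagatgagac
*Spp1*, chr5:104434861-104435110, plus strand: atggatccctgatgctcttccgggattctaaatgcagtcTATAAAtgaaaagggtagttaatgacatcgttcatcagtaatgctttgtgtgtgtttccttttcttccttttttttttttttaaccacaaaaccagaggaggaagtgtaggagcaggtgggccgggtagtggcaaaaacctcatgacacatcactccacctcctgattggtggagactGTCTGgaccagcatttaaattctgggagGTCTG
CAGAC was present in 7 of the 10 windows, which belong to 6 of the 7 genes, and TATAAA in 5 windows of 4 genes. *Postn*, *Tnc* and *Spp1* have 2 windows each, while the share of 42.2% for CAGAC is per window. The window of *Thbs3*, not printed here, holds neither. The windows of the 2 start sites of *Tnc* overlap and share their TATAAA. The match began 26 bases before the start site shown in *Postn*, 205 in *Tnc*, 126 in *Thbs2* and 211 in *Spp1*. Other forms of the TATA box were not searched. TGAGTCA (AP-1) and GGAATG (TEAD) were found in 0 of the 10 windows, and they occur in 4.46% and 12.6% of all windows. The windows printed for *Tgfbi*, *Thbs2* and *Spp1* each hold 2 matches to CAGAC, and that of *Postn* holds 0, while the window of its other start site holds 1, which begins 191 bases before that site. Such matches describe letters and not bound sites.

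The libraries had the profile of fibroblasts. Of 10 fibroblast markers, 9 had an FPKM above 1 in every library, and *Lum* was listed at 0 in CTRL and GDF15. The summed FPKM of these markers was 12699 (CTRL), 13093 (GDF15) and 11954 (TGF-β). Epithelial and endothelial markers (6 and 5 genes) summed to at most 0.735 FPKM in any library, with *Epcam* at 0 in all. Leukocyte markers (5 genes) summed to between 1.35 and 1.85, mostly from *Cd68*. The 3 markers of platelets, which store thrombospondin 1, summed to between 2.55 and 4.41, mostly from *Itga2b*, with *Pf4* at 0 throughout. The low FPKM of genes with a single transcript fell into steps of 1 fragment, which gave estimated depths (in 1e6 fragments) of 18.7 (CTRL), 21.8 (GDF15) and 17.8 (TGF-β). The intervals given with values are exact 95% Poisson intervals of the estimated fragments, or exact binomial intervals for a fold. They cover counting error only. Of 5 genes known to respond to TGF-β, *Acta2*, *Tagln*, *Skil* and *Ltbp2* were over 2-fold higher with either stimulus, and *Smad7* had an FPKM of 2.58, 3.28 and 4.36.

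A gene was counted as changed when its difference of log2(FPKM + 1) was over 1 in absolute value. The study's methods state a fold change over 2 as criterion, and the added 1 FPKM dampens the differences of low values. By this criterion, GDF15 changed 1 of the 10 genes, *Postn*, against 45 of all 15554 rows (0.289%). TGF-β changed 3 of the 10, raising *Postn* and lowering *Sparcl1* and *Spp1*, against 142 rows (0.913%). Against GDF15, TGF-β changed 0 of the 10, while 16 rows passed (0.103%). The median difference of the 10 genes was 0.23 with GDF15 and 0.17 with TGF-β, and that of all rows was 0.00 in both. Between TGF-β and GDF15 the median of the 10 genes was -0.11, beside 0.00 for all rows. Many rows are at 0 in all libraries, and the 9226 rows of mean FPKM from 1 upward, which include the 10 genes, had medians of -0.03 with GDF15, -0.07 with TGF-β and -0.04 between both. These genes were chosen with such results known, so their counts and medians are descriptions of this list. Both comparisons with CTRL share the same CTRL library.

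**Figure D1:**
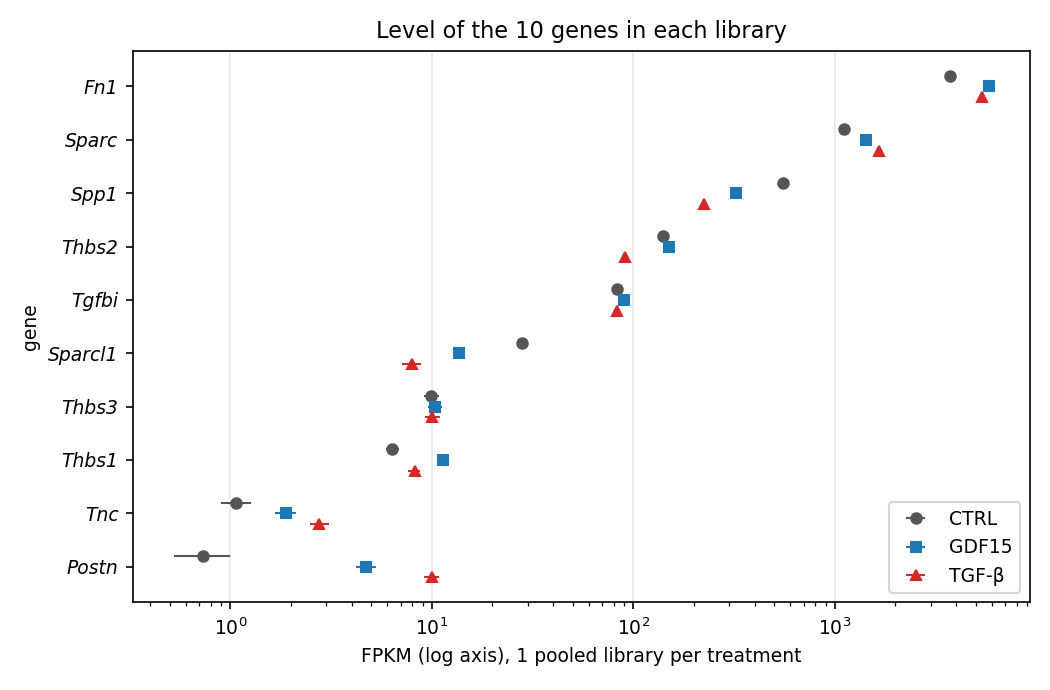
FPKM (log axis) of the 10 genes in the CTRL, GDF15 and TGF-β libraries, 1 pooled library each, with 95% counting intervals as horizontal bars where wider than the symbol. *Fn1* lies at 3738 or above in every library, *Postn* moves from 0.730 to 10.0, and *Sparcl1* and *Spp1* step down from CTRL to GDF15 to TGF-β.

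The levels of the 10 genes spanned a wide range. In CTRL the order from high to low was *Fn1*, *Sparc*, *Spp1*, *Thbs2*, *Tgfbi*, *Sparcl1*, *Thbs3*, *Thbs1*, *Tnc* and *Postn*, and the highest was 5122 times the lowest. Only *Tnc* and *Postn*, the last neighbours in this order, had overlapping counting intervals (0.897 to 1.26 and 0.524 to 0.990 FPKM). The upper 5 genes kept their order in GDF15 and in TGF-β, but the lower 5 did not. In GDF15 the order below *Tgfbi* was *Sparcl1*, *Thbs1*, *Thbs3*, *Postn* and *Tnc*, with overlapping intervals for *Thbs1* and *Thbs3*. In TGF-β it was *Thbs3*, *Postn*, *Thbs1*, *Sparcl1* and *Tnc*. There *Thbs3* and *Postn* had overlapping intervals, as had *Thbs1* and *Sparcl1*. The 10 genes together made up 1.71% (CTRL), 2.56% (GDF15) and 2.41% (TGF-β) of all FPKM, most of it from *Fn1*. Differences are also set against the local spread, a robust standard deviation of the differences of genes with similar mean FPKM in the same comparison, which is a spread between genes and not between replicates.

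**Figure D2:**
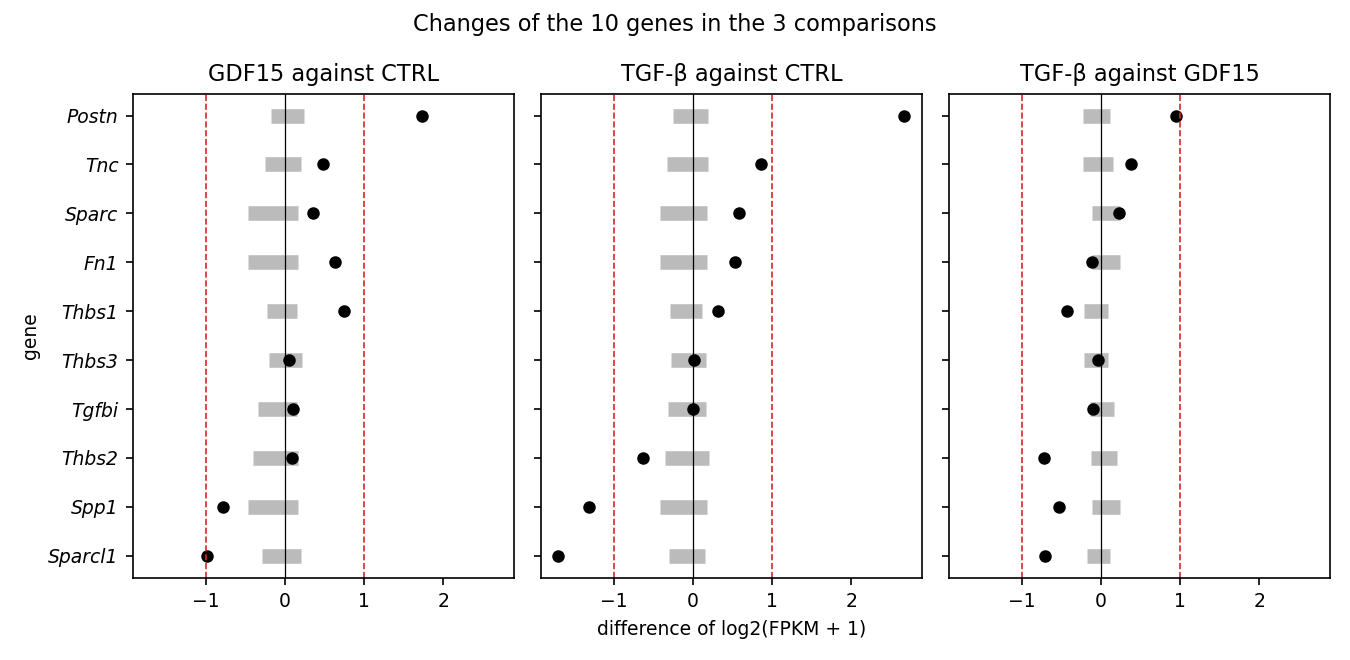
Differences of log2(FPKM + 1) of the 10 genes (points) in the 3 comparisons, with dashed lines at the 2-fold criterion and grey bars for the median difference ± 1 local spread of genes of like expression. *Postn* is beyond the right line in both comparisons with CTRL, *Sparcl1* and *Spp1* are beyond the left line with TGF-β only, and no point is beyond a line between TGF-β and GDF15.

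*Fn1* (chromosome 1 of GRCm38, 71585520 to 71653200, minus strand) was among the most abundant mRNAs of these cells. Its FPKM was 3738 (CTRL), 5815 (GDF15) and 5385 (TGF-β). It ranked as number 3 of all rows in CTRL and number 1 in both stimulated libraries. From its length and FPKM, it took an estimated 3.03% (CTRL), 4.72% (GDF15) and 4.37% (TGF-β) of mapped fragments. The level was 1.56-fold that of CTRL with GDF15 and 1.44-fold with TGF-β, both under the criterion. The values are for the gene as a whole, which has 9 coding transcripts in GENCODE M21, so its spliced forms with and without the extra domains cannot be separated here.

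Abundant genes as a group were slightly lower than in CTRL, and long transcripts slightly higher. The 450 rows with a mean FPKM of at least 100 had a median difference of -0.16 with GDF15 and -0.13 with TGF-β, and *Fn1* had 0.64 and 0.53. Its longest coding transcript has 8315 bases, and genes of like length had a median difference of 0.16 with GDF15 and 0.05 with TGF-β. Less these medians, *Fn1* was higher by 0.47 with either stimulus. The direct difference of TGF-β and GDF15, -0.11 as deposited, was 0.00 after the same step.

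*Postn* and *Tgfbi* encode the fasciclin-domain proteins periostin and TGF-β induced protein, which are close relatives and both bind integrins and collagen. *Postn* (chromosome 3, 54361109 to 54391037, plus strand) had an FPKM of 0.730 (CTRL), 4.73 (GDF15) and 10.0 (TGF-β). These values correspond to an estimated 40.9, 309 and 536 fragments. The ratio of FPKM to CTRL was 6.48 (95% counting interval 4.67 to 9.21) with GDF15 and 13.7 (9.98 to 19.4) with TGF-β. On the log2(FPKM + 1) scale *Postn* rose by 1.73 and 2.67, the number 10 and number 5 of all rows from the top.

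*Tgfbi* (chromosome 13, 56609523 to 56639562, plus strand) differed little between libraries. Its FPKM was 83.1 (CTRL), 89.4 (GDF15) and 83.2 (TGF-β), and the ratio to CTRL was 1.08 (1.03 to 1.12) with GDF15 and 1.001 (0.957 to 1.05) with TGF-β. Both differences from CTRL, 0.11 and 0.00, were within 1 local spread of the median of genes of like expression. The pair thus drew closer, and *Tgfbi* was 114-fold higher than *Postn* (CTRL), 18.9-fold (GDF15) and 8.30-fold (TGF-β).

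*Tnc* (chromosome 4, 63959785 to 64047015, minus strand) encodes tenascin-C, a large hexameric protein that loosens the attachment of cells to fibronectin. Its FPKM was 1.07 (CTRL), 1.89 (GDF15) and 2.76 (TGF-β), a low level behind which stand an estimated 138, 283 and 339 fragments. The differences of 0.48 and 0.86 did not meet the criterion, which understates low genes through its pseudocount. The ratio of FPKM was 1.77 (1.44 to 2.18) with GDF15 and 2.58 (2.11 to 3.17) with TGF-β. With a pseudocount of 0.5, *Tnc* was over 2-fold with TGF-β (1.06).

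The thrombospondins *Thbs1*, *Thbs2* and *Thbs3* bind cell-surface receptors, proteases and growth factors, and thrombospondin 1 is known as an activator of latent TGF-β. *Thbs1* (chromosome 2, 118111876 to 118127133, plus strand) was highest in GDF15, with an FPKM of 6.37 (CTRL), 11.4 (GDF15) and 8.20 (TGF-β). Its ratio to CTRL was 1.79 (1.63 to 1.96) with GDF15 and 1.29 (1.16 to 1.43) with TGF-β. The highest values of *Fn1*, *Tgfbi*, *Thbs2* and *Thbs3* were also in GDF15, but those of *Tgfbi*, *Thbs2* and *Thbs3* were within 0.11 of CTRL on the log2 scale.

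*Thbs2* (chromosome 17, 14665500 to 14694235, minus strand), the most abundant of these thrombospondins, was lower in the TGF-β library only. Its FPKM was 141 (CTRL), 150.4 (GDF15) and 91.0 (TGF-β). The ratio was 1.07 (1.05 to 1.09) for GDF15 to CTRL, 0.645 (0.629 to 0.662) for TGF-β to CTRL and 0.605 (0.590 to 0.620) for TGF-β to GDF15. None of these met the criterion. The direct difference, -0.72, was number 15532 of the 15554 rows from the top. With the median of genes of like length removed, it was -0.63. As deposited, it lay at -4.66 local spreads from the median of genes of like expression. It was also the lowest among the 450 rows with a mean FPKM of at least 100. *Dcn*, for the collagen-binding proteoglycan decorin, was next in that order, with an FPKM of 419 (CTRL), 408 (GDF15) and 248.97 (TGF-β).

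*Thbs3* (chromosome 3, 89215180 to 89226837, plus strand) was level, with an FPKM of 9.95 (CTRL), 10.4 (GDF15) and 10.0 (TGF-β). Its 3 counting intervals overlap. Its exons share 318 bases with *Mtx1* on the opposite strand, a gene of FPKM 15.9, 14.1 and 13.9, and although the library kit was a stranded one, whether strand was used in counting is not given in the sources used here. Noncoding genes on the opposite strand share exon bases with *Tnc* (176), *Thbs1* (208) and *Fn1* (292), a gene of unsettled type (*Gm42793*) shares 309 with *Spp1* on the same strand, and their part in these values was not tested. The 3 thrombospondins summed to 157, 172 and 109 FPKM, and *Thbs2* was 22.1-fold higher than *Thbs1* (CTRL), 13.2-fold (GDF15) and 11.1-fold (TGF-β).

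*Sparc* and *Sparcl1* encode the related collagen-binding proteins SPARC (osteonectin) and SPARC-like 1 (hevin), and they differed in direction. *Sparc* (chromosome 11, 55394500 to 55423183, minus strand) had an FPKM of 1108 (CTRL), 1422 (GDF15) and 1666 (TGF-β). It was number 25 of all rows in CTRL and number 12 in TGF-β. The ratio to CTRL was 1.28 with GDF15 and 1.503 with TGF-β, both under the criterion.

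*Sparcl1* (chromosome 5, 104079111 to 104113733, minus strand) fell with TGF-β by more than all but 4 of the 15554 rows. Its FPKM was 28.1 (CTRL), 13.6 (GDF15) and 7.94 (TGF-β), with 3 counting intervals that do not overlap. The ratio to CTRL was 0.486 (0.444 to 0.532) with GDF15 and 0.283 (0.251 to 0.318) with TGF-β. On the log2(FPKM + 1) scale it fell by 1.70 with TGF-β. The difference with GDF15, -0.99, lay just inside the criterion, and with a pseudocount of 0.5 it was -1.02. *Sparc* was 39.5-fold higher than *Sparcl1* (CTRL), 104-fold (GDF15) and 209.7-fold (TGF-β).

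*Spp1* (chromosome 5, 104435118 to 104441050, plus strand) encodes osteopontin, an integrin- and CD44-binding phosphoprotein of bone matrix that also acts as a cytokine. It was the third most abundant of the 10 genes. Its FPKM was 556 (CTRL), 322 (GDF15) and 224 (TGF-β). The ratio to CTRL was 0.580 (0.565 to 0.596) with GDF15 and 0.402 (0.390 to 0.415) with TGF-β. *Spp1* fell by 1.31 with TGF-β, and its difference with GDF15 was -0.78. Its transcript of 1507 bases is the shortest of the 10, and genes of like length had a median difference of -0.15 with GDF15 and -0.14 with TGF-β. Less these medians, *Spp1* fell by 1.17 with TGF-β and was at -0.64 with GDF15. *Fn1* was 6.72-fold higher than *Spp1* (CTRL), 18.0-fold (GDF15) and 24.1-fold (TGF-β).

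**Figure D3:**
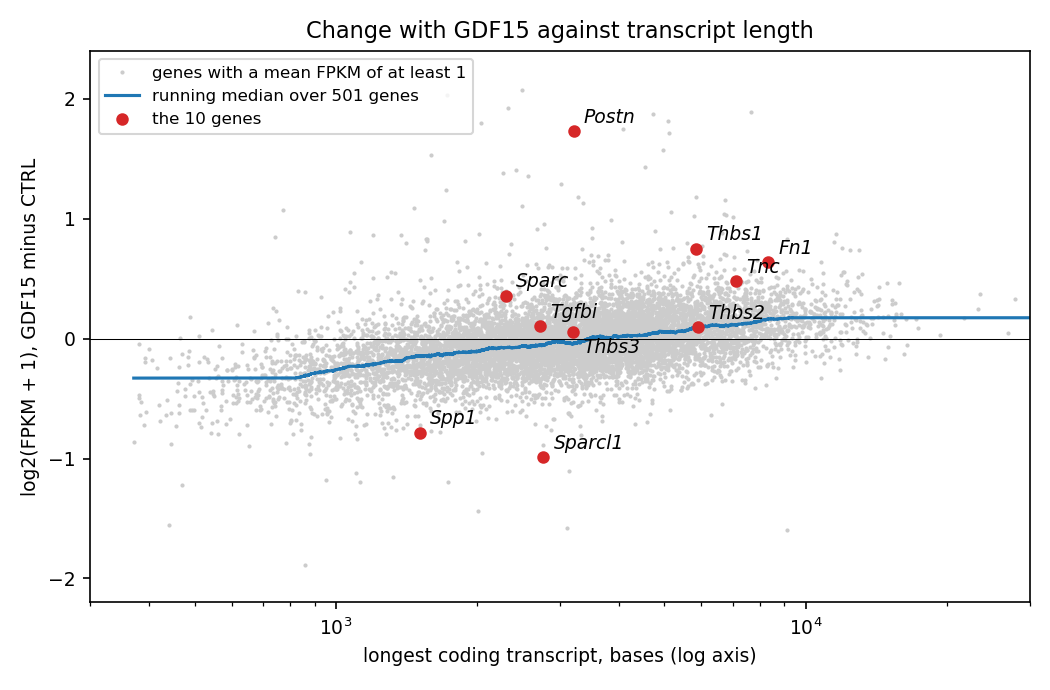
Difference of log2(FPKM + 1) between GDF15 and CTRL against the length of the longest coding transcript (log axis), with genes of mean FPKM from 1 upward as grey points, the running median as a line and the 10 genes in red. The median rises from -0.24 for transcripts of up to 1500 bases to 0.15 for those over 6500 bases, *Thbs2* lies on the line, and *Postn*, *Sparcl1*, *Thbs1* and *Spp1* lie farthest from it.

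Between both stimulated libraries, which differed in dose as well as in ligand, the 10 genes fell on both sides. *Postn* (0.94), *Tnc* (0.38) and *Sparc* (0.23) were higher in TGF-β. *Thbs2* (-0.72), *Sparcl1* (-0.71), *Spp1* (-0.53) and *Thbs1* (-0.43) were lower in TGF-β than in GDF15. *Fn1* (-0.11), *Tgfbi* (-0.10) and *Thbs3* (-0.04) differed least. The ratio of *Postn* was 2.12 (1.84 to 2.44), and with a pseudocount of 0.5 its difference was 1.01. This comparison does not use the CTRL library.

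**Figure D4:**
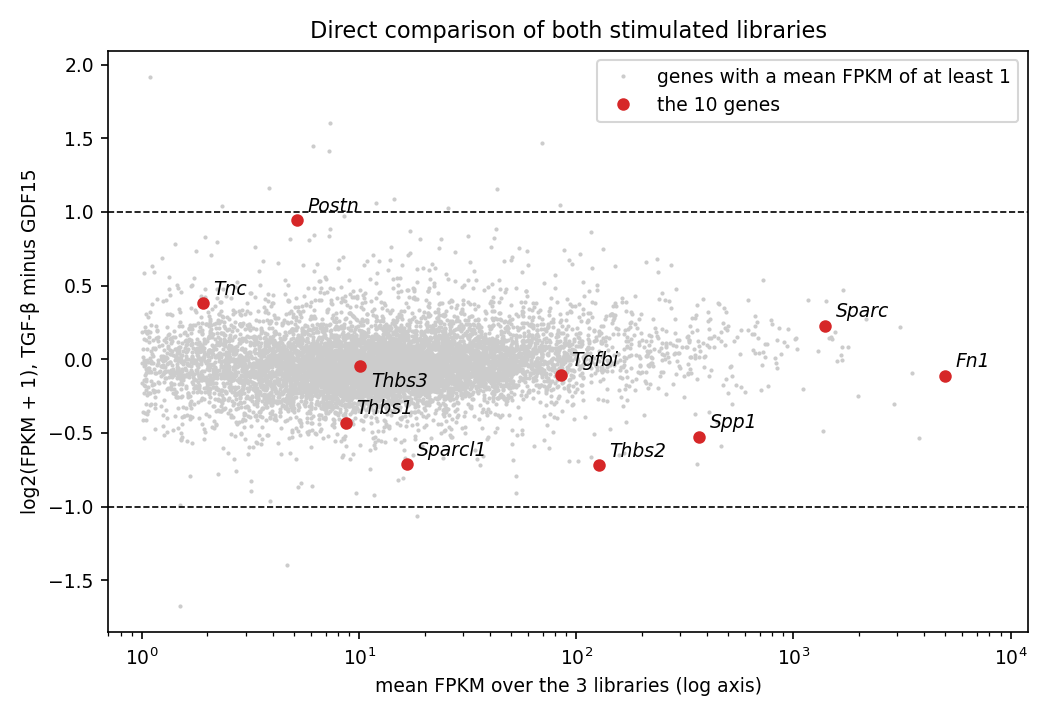
Difference of log2(FPKM + 1) between TGF-β and GDF15 against the mean FPKM over the 3 libraries (log axis), with the 10 genes in red, all others of mean FPKM from 1 upward in grey and dashed lines at the 2-fold criterion. *Thbs2* at -0.72 lies at the lower edge of the abundant genes, and *Postn* at 0.94 lies just under the upper line.

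Other genes of the same families were mostly at or near 0. Of 17 relatives (other thrombospondins, tenascins, SPARC-family, fasciclin and bone sialoprotein-family genes), 15 were in the table, 2 reached a mean FPKM of 1, and 0 passed 2-fold with either stimulus. *Fstl1*, a secreted SPARC-family glycoprotein, was by far the most abundant, with an FPKM of 249.5 (CTRL), 404 (GDF15) and 441 (TGF-β). *Tnr*, which encodes tenascin-R and is known mainly from brain matrix, had an FPKM of 17.3, 18.0 and 9.76. Its exons share 443 bases with the antisense gene *Gm38039*, whose part in this value was not tested. *Tnr* was thus higher than *Tnc* in every library, and its difference was 0.05 with GDF15 and -0.77 with TGF-β. *Comp*, the cartilage thrombospondin, had an FPKM of 0.360, 0.989 and 1.39. *Spock3*, *Ibsp* and *Dspp* were listed at 0 in all libraries.

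Receptors for these proteins included several abundant genes. Of 18 listed, 16 were in the table, 11 reached a mean FPKM of 1, and 1 passed 2-fold with each stimulus, *Itgb5*. *Itgb5*, the integrin chain that pairs with αv to bind vitronectin, osteopontin and periostin, had an FPKM of 56.3 (CTRL), 129 (GDF15) and 169 (TGF-β). Its partner *Itgav* had 44.1, 71.3 and 62.7, and *Itgb3* had 23.4, 34.3 and 36.6. *Itgb1* and *Itga5*, which form the main fibronectin receptor, had 140 and 77.1 in CTRL, 202 and 73.2 in GDF15, and 194 and 85.2 in TGF-β. *Lrp1*, the endocytic receptor that clears thrombospondins, led this list at 158, 219 and 213 FPKM. *Cd44* and *Cd47* were within 0.07 of CTRL on the log2 scale with either stimulus. The median of the 16 receptors was 0.05 with GDF15 and 0.10 with TGF-β, and that of the 11 that reached a mean FPKM of 1 was 0.41 and 0.19.

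Among 18 partners, which are matrix proteins and enzymes that bind or process the 10 proteins, 17 were in the table. With GDF15, 1 passed 2-fold, and with TGF-β 3 did, all higher. *Lox*, the collagen cross-linking enzyme, rose from an FPKM of 78.0 to 289 with GDF15 and 452 with TGF-β. *Fbln2*, a fibronectin-binding matrix protein, rose with TGF-β, with an FPKM of 257, 479.6 and 622. *Col5a1* met the criterion with TGF-β at 1.004, with an FPKM of 99.0, 153 and 199.5. The most abundant partners were *Col3a1*, *Col1a2* and *Col1a1*, which lay within 0.79 of CTRL. The median of the 17 partners was 0.18 with GDF15 and -0.03 with TGF-β, and that of the 15 that reached a mean FPKM of 1 was 0.26 and -0.03.

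**Figure D5:**
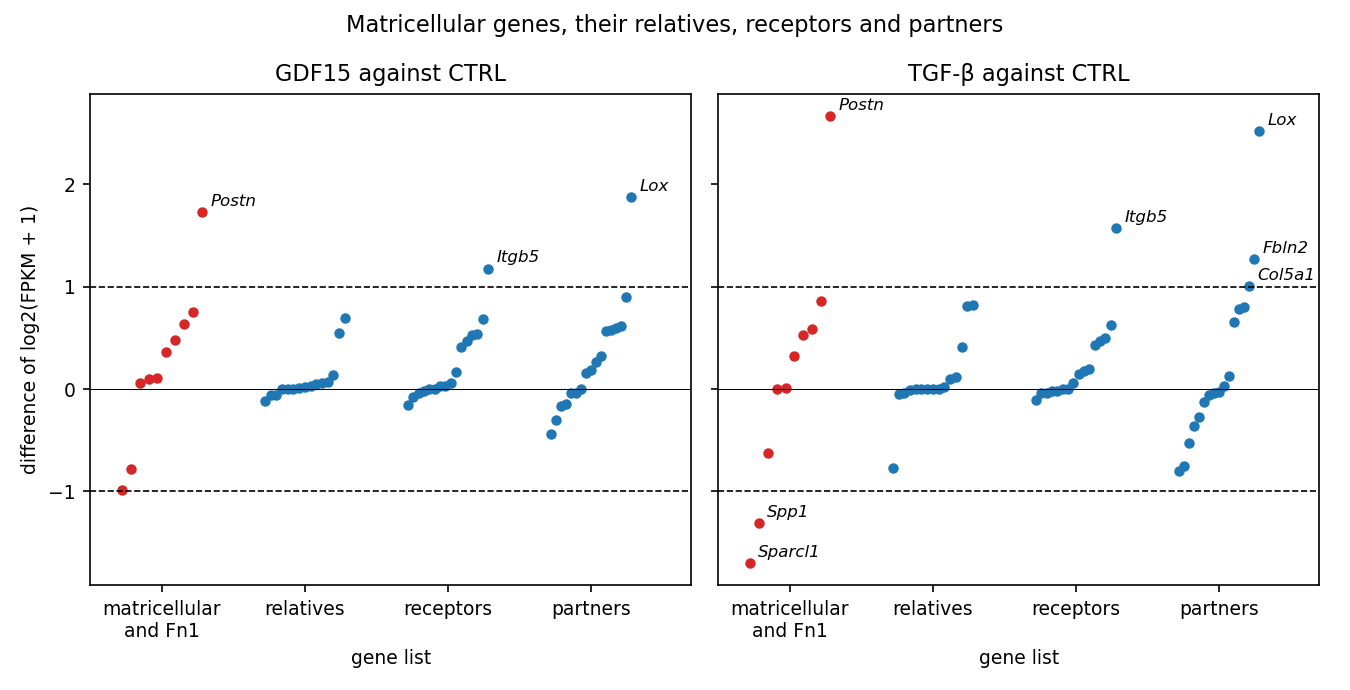
Differences of log2(FPKM + 1) from CTRL for the 10 genes (red) and for their relatives, receptors and partners (blue), each gene as a point ordered within its list, with dashed lines at the 2-fold criterion and names for genes beyond it. The 10 genes hold the only points below the lower line, *Sparcl1* and *Spp1* with TGF-β.

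For the 3 genes over 2-fold, the genes with the nearest pair of differences from CTRL were looked up among the 9225 other genes of mean FPKM from 1 upward. This likeness rests on 3 libraries and on a shared CTRL. Nearest to *Postn* were *Ccdc80* (FPKM 11.5, 40.9 and 73.3 in CTRL, GDF15 and TGF-β), *Wisp1* (1.496, 7.79 and 16.2) and *Col11a1* (3.72, 16.5 and 31.0), at Euclidean distances of 0.10, 0.14 and 0.18. *Ccdc80* encodes a secreted matrix protein, *Wisp1* a CCN-family matricellular protein and *Col11a1* a fibrillar collagen chain. Nearest to *Sparcl1* were *Insl3* (6.83, 3.51 and 1.31), *Ngef* (13.8, 7.12 and 4.13) and *Spon2* (69.3, 35.2 and 25.2), at distances of 0.20, 0.22 and 0.28. Nearest to *Spp1* were *Nov* (2.20, 0.890 and 0.363), *Xdh* (78.4, 47.9 and 33.3) and *Ralgds* (54.4, 33.4 and 19.98), at distances of 0.08, 0.13 and 0.13. *Nov* is another CCN-family matricellular gene, and it was low in all 3 libraries. Its likeness to *Spp1* depends on the added 1 FPKM, which dampens low genes, since its ratios of FPKM to CTRL were lower than those of *Spp1* with both stimuli. The added 1 FPKM also dampens *Postn*, which was at 0.730 FPKM in CTRL. The ratios of *Postn* to CTRL, 6.48 with GDF15 and 13.7 with TGF-β, were higher than those of *Ccdc80*, *Wisp1* and *Col11a1*. With TGF-β, the ratio of *Insl3* to CTRL was lower than that of *Sparcl1* (0.283).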

How the data were processed

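NIH3T3 fibroblasts were measured by RNA-sequencing in 3 libraries (CTRL, GDF15 and TGF-β), 1 per treatment, from pooled RNA. The authors calculated the deposited FPKM with Cufflinks from 50-base single-end reads and retained UniProt-reviewed protein coding genes. The submitters' processing notes name TopHat 1.3.2, Bowtie 0.12.9, Cufflinks 2.0.2 and build mm10. Libraries were made with a stranded mRNA kit. The gene annotation and whether strand was used in counting are not given in the sources used here. Columns were matched by the treatment in their names.

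Differences of log2(FPKM + 1) were computed over all 15554 rows, and those over 1 in absolute value were counted. The local spread is a scaled median absolute deviation (factor 1.4826) in a running window of genes ordered by mean expression. Depth was estimated from the lowest step of FPKM times effective length (length less 199 bases, as for a mean fragment of 200 bases) in genes with a single GENCODE M21 transcript. Of 2094 such genes, 110 (CTRL), 131 (GDF15) and 126 (TGF-β) lay in the range searched. The step itself held 81, 94 and 91 of them. Fragments of a gene are FPKM times depth times the effective length of its longest coding transcript, an approximation where a gene has several. Depth recovery and 2-fold counts were tested on simulated data. Promoters are from RefSeq (GRCm38.p6). Alternatives were pseudocounts of 0.5, 0.1 and none, a minimum mean FPKM of 1, scaling to the same upper quartile, and subtraction of a running median by expression or by transcript length.

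The genes named outside the 10 are those of the lists over 2-fold, the 3 most abundant of each list, and the 3 nearest patterns, with others named after their values were seen (*Dcn*, *Itgav*, *Itgb3*, *Itga5*, *Cd44*, *Cd47*, *Smad7*, *Mtx1*, *Gm42793*, *Gm38039*, genes listed at 0, the marker genes and the genes of the closing section). The 10 genes and the lists were chosen with earlier results of these data known. *Tnxb*, *Mepe*, *Itga9*, *Itgb8*, *Col6a3*, *Adgre1* and *Ppbp* of the lists were not analysed here. Scripts ran under Python 3.11.15 with scipy 1.17.1, numpy 2.4.6, matplotlib 3.10.9 and pandas 2.3.3.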

Additional observations from a re-analysis of the deposited data

How the results depend on the processing

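No paired analysis was possible because CTRL and each stimulus have a single pooled library, and for the same reason none could be left out. The number of the 10 genes over 2-fold depended on the pseudocount. With pseudocounts of 0.5 and 0.1 and without one, GDF15 changed 2 genes, *Sparcl1* being added at -1.02, -1.04 and -1.04, and TGF-β against GDF15 changed 1 gene, *Postn*, at 1.01, 1.07 and 1.08. TGF-β against CTRL changed 4 genes under each of them, with *Tnc* added. Counts over all rows rose too. By GDF15 they were 45 in the main analysis and 71, 315 and 589 under these settings, by TGF-β 142 in the main analysis and 196, 489 and 789, and between both stimuli 16 in the main analysis and 32, 227 and 525. Without a pseudocount, only the 11081 rows above 0 in all 3 libraries were counted. Under the other 4 alternatives the counts of the 10 genes were 1, 3 and 0. With a minimum mean FPKM of 1, the same upper quartile, and the median by expression or by length removed, the counts over all rows were 44, 47, 49 and 39 by GDF15, 137, 138, 139 and 132 by TGF-β, and 15, 16, 17 and 17 between both, out of 9226 rows with the minimum, 9193 with the length trend and 15554 with the others. The median of the 10 genes ran from 0.23 to 0.36 with GDF15, from 0.17 to 0.24 with TGF-β and from -0.14 to -0.03 between both. Of 210 alternative values of single genes, 42 moved by at least 0.5 times the log2 width of their counting interval, and 2 changed sign. Both were of *Thbs3* between TGF-β and GDF15, which was -0.04 in the main analysis, 0.02 with the median by expression removed and 0.00 with that by length removed. Depth limits *Postn* in CTRL most, with an estimated 40.9 fragments.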

Other observations

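In the 450 rows of mean FPKM from 100 upward, the lowest differences of log2(FPKM + 1) between TGF-β and GDF15 belonged to *Thbs2* (-0.72), *Dcn* (-0.71), *Mterfd2* (-0.69), *Sned1* (-0.66), *Dlk1* (-0.65) and *Colec12* (-0.63), named after their values were seen. *Thbs2*, *Dcn* and *Colec12*, the last a scavenger receptor with an FPKM of 166 (CTRL), 202 (GDF15) and 129.8 (TGF-β), were within 0.29 of CTRL with GDF15. *Pdgfra*, the platelet-derived growth factor receptor of fibroblasts, had an FPKM of 61.3, 61.3 and 35.0, and *Col3a1* of 3738, 4484 and 3092. The direct difference of *Tnr* was -0.82. *Mterfd2*, *Sned1* and *Dlk1* were lower with GDF15 too (-1.58, -1.59 and -0.63). The FPKM of *Mterfd2* (198, 65.7 and 40.4) and *Sned1* (228, 74.7 and 46.9) were similar in each library. Exon overlaps of these genes were not searched.

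The highest direct differences in the same set were those of *Anxa8* (0.87), *Fdps* (0.75), *Insig1* (0.71), *Scd2* (0.68), *Tmsb10* (0.66) and *Lox* (0.64). *Fdps*, *Insig1* and *Scd2* belong to sterol and fatty acid synthesis or its control. None of the 12 genes passed 2-fold between both stimulated libraries.

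The genes nearest to *Thbs2* in their pair of differences from CTRL, a look-up added after its values were seen, were *Abca9* (FPKM 3.01, 3.28 and 1.68), *Hmmr* (9.25, 9.94 and 5.96) and *Ckap2l* (12.5, 13.1 and 8.19). *Hmmr* and *Ckap2l* are known as genes of the mitotic spindle.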
